A study of Mus musculus with 4 samples.

Results

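The Toll-like receptors are a family of membrane receptors that detect molecules of microbes and, as reported in many systems, some products of damaged tissue. The account below covers 10 mouse members, Tlr1, Tlr2, Tlr3, Tlr4, Tlr5, Tlr6, Tlr7, Tlr8, Tlr9 and Tlr13, out of 22180 genes measured in synovium, the lining tissue of joints. The members were taken by name, each through its brightest probe set (by the mean of the 4 arrays) among those with exactly 1 gene symbol. All 10 were measured, and each had 1 such probe set. By their usual location, 5 are receptors of the cell surface (Tlr1, Tlr2, Tlr4, Tlr5 and Tlr6) and 5 are receptors of endosomes (Tlr3, Tlr7, Tlr8, Tlr9 and Tlr13).

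Arthritic synovium on day 10, labelled as the peak of inflammation, was measured in 2 pools of 10 mice each, and nonarthritic synovium, labelled day 0, in 2 pools of 3 mice each. All mice were male C57BL/6J, 12 weeks old at induction. Arthritic mice were given 150 microlitres of arthritogenic serum into the peritoneum on days 0, 2 and 7, and nonarthritic mice the same volume of phosphate buffered saline. All 4 pools carry K/BxN as their serum source label and serum transfer arthritis as their model label, which for the nonarthritic pools conflicts with the saline of the protocol. K/BxN is a mouse strain with spontaneous arthritis, and its serum transfers joint inflammation through autoantibodies. Tissue came from the region of the ankle (tibiotalar) joint. Labelled day and pool size differ between the groups together with arthritis, so these cannot be told apart. Each value is a log2 signal of 1 pool on 1 array, as normalized by the authors, and whole tissue was measured, so more cells of a type cannot be told apart from more RNA per cell.

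Toll-like receptors sense ligand with a horseshoe of leucine-rich repeats and signal through a cytoplasmic TIR domain. Most of them recruit the adaptor Myd88, which leads to NF-kappa-B and to inflammatory cytokines, while Tlr3, and Tlr4 after it has entered endosomes, use the adaptor Ticam1 (TRIF), which leads to interferon regulatory factors and interferon genes. In the joint, macrophages, neutrophils and synovial fibroblasts are known to carry members of the family.

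The arrays held 1105 olfactory receptor genes, which are not expected to be transcribed in joint tissue and serve here as a gauge of background. Their median signal was 4.60 and 4.68 in arthritic pools 1 and 2, and 4.68 and 5.15 in nonarthritic pools 1 and 2. All 10 members lay above the 95th percentile of these genes on every array. The nearest to it was Tlr1 in nonarthritic pool 2, which read 7.53 against a percentile of 7.358 on that array. All 10 genes listed here as markers of synovial fibroblasts were measured, and their lowest group mean was 8.555. Lubricin, Prg4, the secreted lubricant of the lining, read 13.27 and 13.52 in arthritic pools and 13.66 and 13.66 in nonarthritic pools. Markers of skeletal muscle were also present, with a mean log2 signal of 9.15 and 8.51 over 5 genes in arthritic pools and 11.84 and 12.28 in nonarthritic pools. The part of muscle tissue in the group differences of the Toll-like receptor genes was not tested.

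Of the 10 Toll-like receptor genes, Tlr1, Tlr2, Tlr9 and Tlr13 rose in arthritic synovium, Tlr7 fell, and 5 did not pass the test (limma across all genes, Benjamini-Hochberg adjusted p under 0.05). The call was made for 15.3% of all genes, with 8.72% rising and 6.62% falling. Both arthritic pools lay above both nonarthritic pools for 7 members and below them for 2 members, and the groups overlapped for Tlr3. Among all genes 30.2% lay above in this way and 26.1% below, 56.4% together. The median log2 fold change of the 10 members was 0.44, against 0.005 for all 22180 genes. Log2 fold changes are arthritic over nonarthritic, so that positive ones are higher in arthritis, and p-values reflect variation among pools of mice rather than among single mice.

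**Figure D1:**
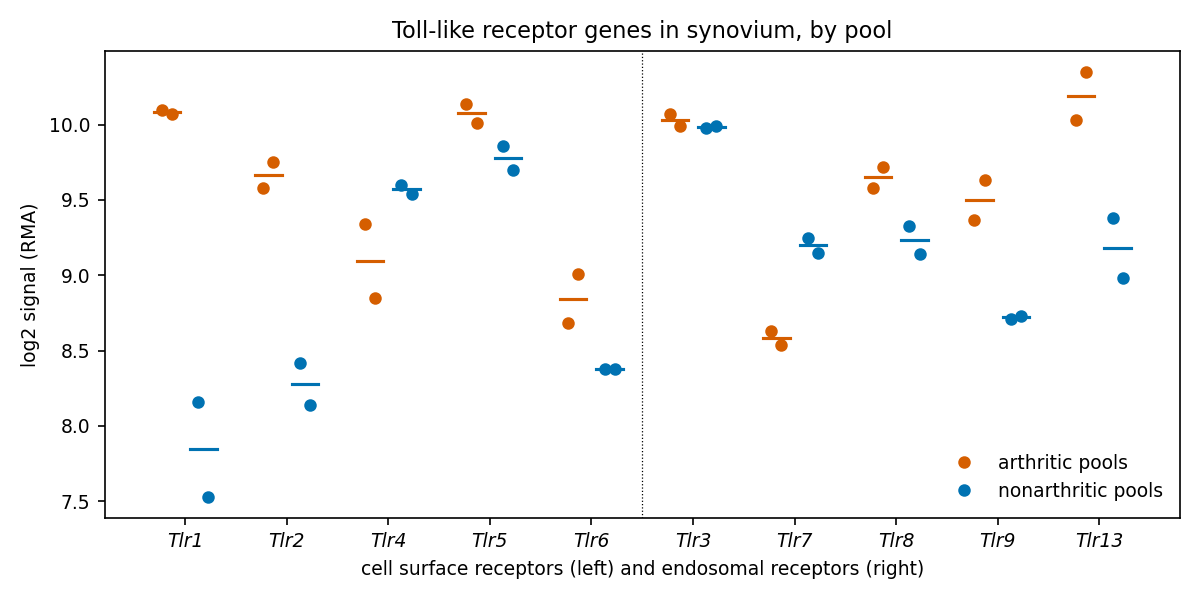
Log2 signal of the 10 Toll-like receptor genes in each pool, with arthritic pools (orange) left of nonarthritic pools (blue) for each gene, and a bar at the mean of 2 pools. Tlr1 shows the widest step, with arthritic values of 10.10 and 10.07 and nonarthritic values of 8.16 and 7.53, while Tlr7 lies lower in both arthritic pools.

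Among the surface receptors, Tlr1 changed most. Its protein pairs with that of Tlr2, and the pair binds bacterial lipoproteins with triacylated ends. Tlr1 read 10.10 and 10.07 in arthritic pools 1 and 2, and 8.16 and 7.53 in nonarthritic pools 1 and 2. The arthritic pools were nearly equal, whereas the nonarthritic pools stood 1.55-fold apart, the widest gap between nonarthritic pools among the members. Its log2 fold change was 2.24 ± 0.22 (SE), 4.72-fold, with an adjusted p of 0.000625 in limma. Of all 22180 genes, 99.6% had a lower fold change, and Tlr1 ranked at position 80 from the top. Leaving out nonarthritic pool 1 gave 2.555 and leaving out nonarthritic pool 2 gave 1.925, both still past the threshold (adjusted p = 0.0192 and 0.0378 in limma). The call was lost without arthritic pool 1 (2.225, adjusted p = 0.0552) and without arthritic pool 2 (2.255, adjusted p = 0.0729).

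Tlr2, which forms receptors for lipoproteins with either Tlr1 or Tlr6, read 9.58 and 9.75 in arthritic pools, and 8.42 and 8.14 in nonarthritic pools. Both arthritic pools lay more than 1 log2 unit above the nonarthritic ones. The log2 fold change was 1.385 ± 0.17 (SE), 2.61-fold, with an adjusted p of 0.00178 in limma. It ran from 1.245 to 1.525 as pools were left out in turn. Tlr2 kept its call without nonarthritic pool 1 (adjusted p = 0.0328) and lost it without nonarthritic pool 2 (0.0659), arthritic pool 1 (0.0552) or arthritic pool 2 (0.0853).

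Tlr6, the other partner of Tlr2, is the gene next to Tlr1 on chromosome 5, with 0 genes between them in the RefSeq table. Tlr6 read 8.68 and 9.01 in arthritic pools and 8.38 in both nonarthritic pools. The arthritic pools were higher, by less than for its neighbour. Its log2 fold change was 0.465 ± 0.17 (SE) and did not pass (adjusted p = 0.117 in limma). It was 0.63 without arthritic pool 1 and 0.30 without arthritic pool 2. The fold change of Tlr1 exceeded that of Tlr6 by 1.775 log2 units, a difference that was not tested. As linear folds, the partners of Tlr2 stood at 4.72-fold for Tlr1 and 1.38-fold for Tlr6.

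Tlr4, the receptor for lipopolysaccharide, differed in direction from Tlr1 and Tlr2. It read 9.34 and 8.85 in arthritic pools, and 9.60 and 9.54 in nonarthritic pools. Both arthritic pools were lower, and they stood 1.40-fold apart, the widest gap between arthritic pools among the members. The log2 fold change was -0.475 ± 0.20 (SE), which did not pass (adjusted p = 0.153 in limma). It was -0.72 without arthritic pool 1 and -0.23 without arthritic pool 2. Tlr5, the receptor for flagellin, read 10.14 and 10.01 in arthritic pools and 9.86 and 9.70 in nonarthritic pools. Its log2 fold change of 0.295 ± 0.16 (SE) did not pass (adjusted p = 0.276), with a 95% interval from -0.08 to 0.67.

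The promoter windows of the surface genes that rose are printed because both genes rose together. They come from RefSeq on GRCm38.p6 and run from 250 bases before the transcription start to 50 bases after it, on the gene's strand. Capitals mark matches, on either strand, to 6 motifs. For NF-kappa-B the letters searched were GGGNNTTCC, and for the core of an interferon response element GAAANNGAA. For C/EBP they were TTGCNNAA and for AP-1 TGANTCA. A PU.1-type site was searched as GAGGAAG, and the TATA box as TATAAA.
Tlr1, first listed start, chr5:64933509-64933808, minus strand: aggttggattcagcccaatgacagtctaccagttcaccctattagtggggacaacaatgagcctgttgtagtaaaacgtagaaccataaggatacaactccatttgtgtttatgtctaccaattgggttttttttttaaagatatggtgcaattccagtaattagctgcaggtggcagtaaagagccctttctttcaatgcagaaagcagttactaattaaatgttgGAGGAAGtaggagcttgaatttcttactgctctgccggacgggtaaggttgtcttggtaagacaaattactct
Tlr1, second listed start, chr5:64932650-64932949, minus strand: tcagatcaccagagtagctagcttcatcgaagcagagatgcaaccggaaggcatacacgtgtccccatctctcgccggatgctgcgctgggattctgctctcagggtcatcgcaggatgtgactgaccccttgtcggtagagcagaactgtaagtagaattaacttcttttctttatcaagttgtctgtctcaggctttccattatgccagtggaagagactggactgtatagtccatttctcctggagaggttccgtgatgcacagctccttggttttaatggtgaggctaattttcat
Tlr2, chr3:83841559-83841858, minus strand: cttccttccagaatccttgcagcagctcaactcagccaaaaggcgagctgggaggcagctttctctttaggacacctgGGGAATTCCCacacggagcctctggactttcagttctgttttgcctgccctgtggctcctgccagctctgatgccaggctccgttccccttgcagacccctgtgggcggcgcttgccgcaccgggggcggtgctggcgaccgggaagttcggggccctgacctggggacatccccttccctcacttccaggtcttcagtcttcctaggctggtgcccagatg
The first Tlr1 window held 1 match, to GAGGAAG, which began 23 bases before the start, and the second held 0 matches. The capital run of the Tlr2 window matched GGGNNTTCC once on each strand, in overlapping frames that began 172 and 171 bases before the start. Among all 32851 windows of this length, 5.82% held GGGNNTTCC and 13.6% held GAGGAAG. A match describes letters and is not a binding site.

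Among the endosomal receptors, Tlr13 had the highest fold change. This mouse receptor for bacterial ribosomal RNA read 10.03 and 10.35 in arthritic pools, and 9.38 and 8.98 in nonarthritic pools. The groups did not overlap, and their pools stood 0.32 log2 units apart in arthritic and 0.40 in nonarthritic synovium. The log2 fold change was 1.01 ± 0.20 (SE), 2.01-fold, with an adjusted p of 0.0130 in limma. With 1 pool left out it lay between 0.81 (without nonarthritic pool 2) and 1.21 (without nonarthritic pool 1). No fit with 1 pool left out passed: the adjusted p was 0.0943 without arthritic pool 1, 0.179 without arthritic pool 2, 0.0555 without nonarthritic pool 1 and 0.163 without nonarthritic pool 2.

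Tlr9, which senses DNA with unmethylated CpG, read 9.37 and 9.63 in arthritic pools, and 8.71 and 8.73 in nonarthritic pools. The nonarthritic pools were nearly equal and both lay below the arthritic ones. Its log2 fold change was 0.78 ± 0.17 (SE), 1.72-fold, with an adjusted p of 0.0173 in limma. Leaving out arthritic pool 1, arthritic pool 2, nonarthritic pool 1 or nonarthritic pool 2 gave log2 fold changes of 0.91, 0.65, 0.77 and 0.79 and adjusted p-values of 0.0824, 0.163, 0.102 and 0.152, none past the threshold.

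Tlr7, a sensor of single-stranded RNA, fell. It read 8.63 and 8.54 in arthritic pools, and 9.25 and 9.15 in nonarthritic pools. Pools of one group differed by at most 0.10 log2 units, and the groups did not overlap. Its log2 fold change was -0.615 ± 0.16 (SE), 1.53-fold lower, with an adjusted p of 0.0340 in limma. The sign held in every fit that left out 1 pool, with log2 fold changes of -0.66 without arthritic pool 1, -0.57 without arthritic pool 2, -0.565 without nonarthritic pool 1 and -0.665 without nonarthritic pool 2, but none passed (adjusted p = 0.143, 0.2, 0.131 and 0.158). The call also ended when arrays were centred on their medians (-0.52, adjusted p = 0.0880).

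Tlr8, the gene beside Tlr7 on chromosome X with 0 genes between them in the RefSeq table, had the opposite sign. It belongs to the same group of RNA sensors and read 9.58 and 9.72 in arthritic pools, against 9.33 and 9.14 in nonarthritic pools. The groups did not overlap, and the log2 fold change of 0.415 ± 0.16 (SE) did not pass (adjusted p = 0.135 in limma). The fold change of Tlr8 exceeded that of Tlr7 by 1.03 log2 units, which was not tested. Tlr3, the sensor of double-stranded RNA and the member that signals through Ticam1 alone, read 10.07 and 9.99 in arthritic pools and 9.98 and 9.99 in nonarthritic pools. The groups overlapped, and the log2 fold change was 0.045 (95% interval -0.31 to 0.40, adjusted p = 0.892), with its sign turned by a further quantile normalization (-0.0025).

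**Figure D2:**
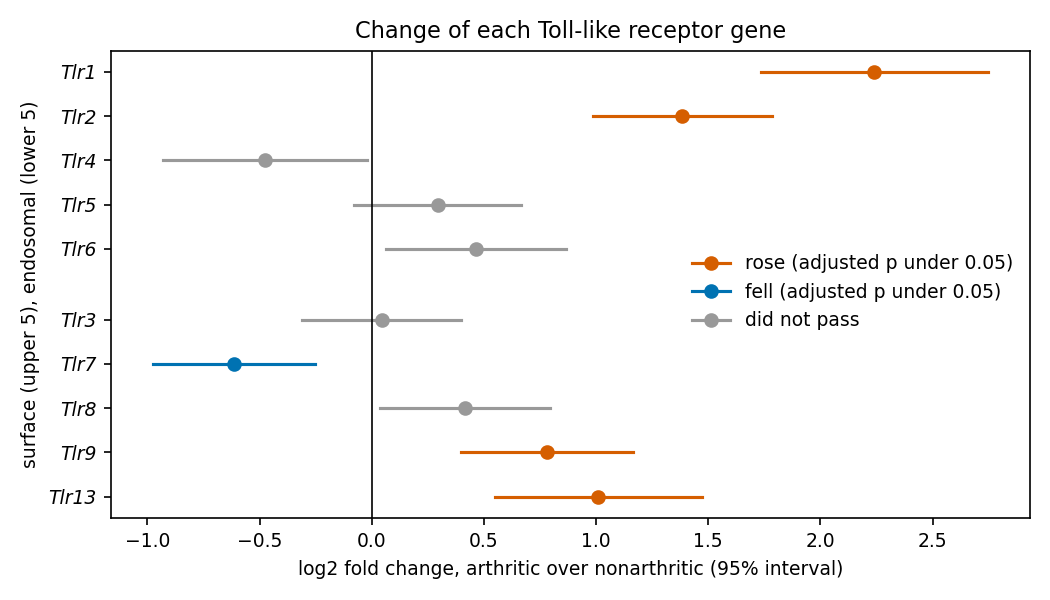
Log2 fold change of each gene, arthritic over nonarthritic, with its 95% interval from limma (lines), for surface receptors above and endosomal receptors below. Tlr1, Tlr2, Tlr9 and Tlr13 (orange) rose, Tlr7 (blue) fell, and the 5 grey genes did not pass the adjusted threshold, although the single-gene intervals of Tlr4, Tlr6 and Tlr8 do not include 0.

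The windows of the endosomal genes that rose are printed with the same motifs in capitals.
Tlr9, chr9:106222348-106222647, plus strand: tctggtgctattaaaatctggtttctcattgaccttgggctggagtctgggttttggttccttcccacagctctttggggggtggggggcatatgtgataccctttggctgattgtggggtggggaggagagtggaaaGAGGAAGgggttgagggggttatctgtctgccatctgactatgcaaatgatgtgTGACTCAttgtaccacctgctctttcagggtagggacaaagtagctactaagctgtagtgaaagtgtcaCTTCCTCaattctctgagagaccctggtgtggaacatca
Tlr13, chrX:106143025-106143324, plus strand: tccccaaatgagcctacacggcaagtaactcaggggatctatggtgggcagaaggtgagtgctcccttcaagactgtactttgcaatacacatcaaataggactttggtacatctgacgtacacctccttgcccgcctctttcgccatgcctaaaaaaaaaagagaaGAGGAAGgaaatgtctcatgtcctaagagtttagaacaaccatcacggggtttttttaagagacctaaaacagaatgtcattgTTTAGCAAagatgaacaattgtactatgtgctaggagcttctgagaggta
GAGGAAG was matched at 112 bases before and 11 bases after the Tlr9 start and at 83 bases before the Tlr13 start. The Tlr9 window also held an AP-1 match (TGANTCA), 58 bases before the start, and the Tlr13 window held a C/EBP match (TTGCNNAA) at the start itself. TGANTCA was found in 7.81% and TTGCNNAA in 10.8% of all 32851 windows. Windows were at hand for 8 of the 10 members, 10 windows in all. Tlr4 and Tlr7, the members with negative fold changes, had none. GAGGAAG, held by 13.6% of all windows, was found in 3 of these 10, those of Tlr1, Tlr9 and Tlr13. It was not found in that of Tlr2, which also rose, and a link between motif and change was not tested. TTGCNNAA was found in 4 of the 10, those of Tlr13 and of Tlr3, Tlr6 and Tlr8, which did not pass the test. GAAANNGAA, held by 8.56% of all windows, was found in 2 member windows, those of Tlr6 and Tlr8. TATAAA, also held by 13.6%, was found in 2 member windows, of the same genes.

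By location, 2 of 5 surface receptors rose and 0 fell, and 2 of 5 endosomal receptors rose and 1 fell, beside 8.72% rising and 6.62% falling among all genes. The median log2 fold change was 0.465 for surface receptors, with a range from -0.475 to 2.24, and 0.415 for endosomal receptors, with a range from -0.615 to 1.01. The medians were close and the ranges overlapped, and the means were further apart, with Tlr1 and Tlr2 the highest members. Over the 5 surface receptors the mean log2 signal was 9.57 and 9.54 in arthritic pools, against 8.88 and 8.66 in nonarthritic pools, a difference of 0.782. Over the 5 endosomal receptors it was 9.54 and 9.65 in arthritic pools, against 9.33 and 9.20 in nonarthritic pools, a difference of 0.327. Arthritic pools were higher than nonarthritic pools in both classes, and the difference between the classes was not tested.

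**Figure D3:**
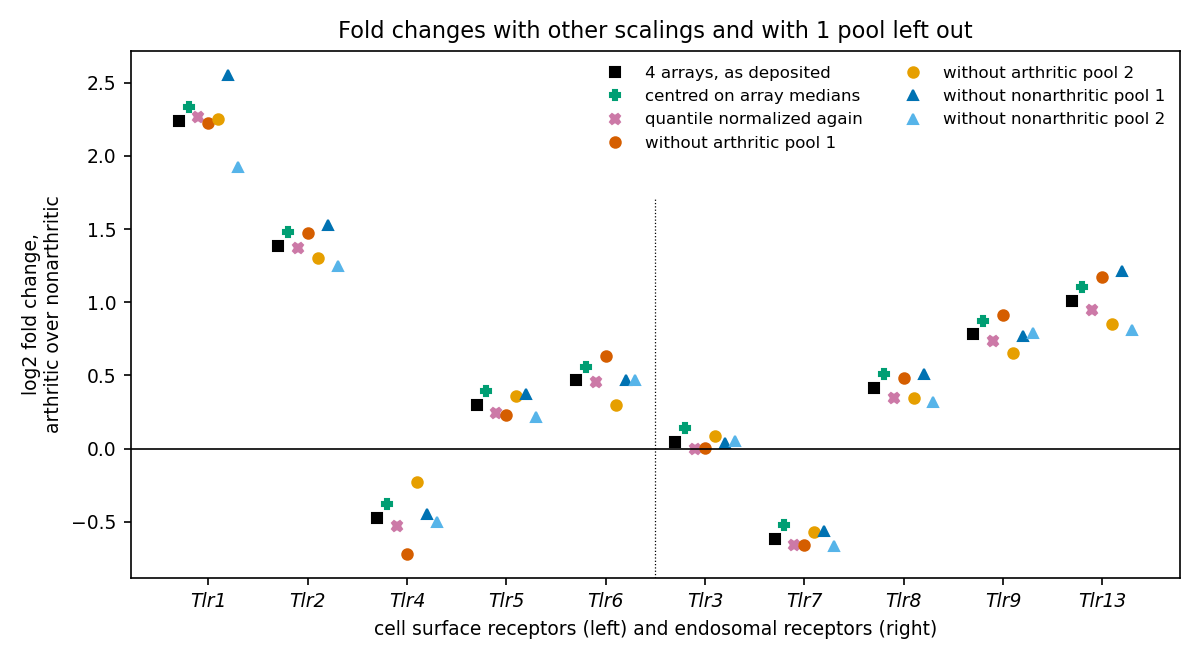
Log2 fold change of each gene with all 4 arrays as deposited (black), with 2 other scalings, and with 1 pool left out. Signs were the same in all 7 fits for every gene except Tlr3, which lay near 0, and the widest movement for a gene that passed was that of Tlr1, from 1.925 to 2.555.

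Fewer members were called in each fit with 1 pool left out. Of the members, 4 rose with all pools, 0 without arthritic pool 1, 0 without arthritic pool 2, 2 without nonarthritic pool 1 (Tlr1 and Tlr2) and 1 without nonarthritic pool 2 (Tlr1). Over all genes, the share called was 15.3% with all pools, and 2.93%, 0.685%, 5.5% and 1.59% without these pools in the same order. Tlr7 was called in none of the 4 reduced fits.

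The 2 other Toll-like receptor genes of the mouse, Tlr11 and Tlr12, which are no members here, were dim. Tlr11 read 5.95 and 6.09 in arthritic pools and 6.73 and 6.88 in nonarthritic pools, and Tlr12 read 6.49 and 6.54 in arthritic pools and 6.08 and 6.5 in nonarthritic pools. All these values lay below the 95th percentile of olfactory receptor genes on their own array, so no fold change is given, although Tlr11 passed the test (adjusted p = 0.0150 in limma).

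Co-receptors and ligand-presenting partners moved both ways: of 8 measured genes 3 rose and 1 fell, with a median log2 fold change of -0.30. Cd14, which hands lipopolysaccharide to Tlr4 and lipoproteins to Tlr2, read 9.93 and 10.34 in arthritic pools, against 9.48 and 9.09 in nonarthritic pools. Its log2 fold change was 0.85 ± 0.21 (SE, adjusted p = 0.0297 in limma). The integrin chains Itgb2 (0.725) and Itgam (0.62), which form complement receptor type 3 of myeloid cells, also rose. Cd36, a scavenger receptor that assists Tlr2 and is also abundant in fat and muscle vessels, fell by 1.55 on the log2 scale (adjusted p = 0.000958). Ly96, which encodes MD-2, the ligand-binding partner of Tlr4, read 10.75 and 9.53 in arthritic pools and 10.80 and 11.04 in nonarthritic pools. Only arthritic pool 2 stood well below the others, and the log2 fold change of -0.78 did not pass (adjusted p = 0.182). Cd180, a Toll-like homologue of B cells and macrophages, had a log2 fold change of -0.175 (adjusted p = 0.645).

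Genes that fold, carry or cleave the receptors included 2 rises and 0 falls among 11 (median log2 fold change 0.40). Unc93b1, which carries the endosomal receptors out of the endoplasmic reticulum, read 11.42 and 11.46 in arthritic pools and 10.90 and 10.84 in nonarthritic pools (log2 fold change 0.57 ± 0.15 SE, adjusted p = 0.0424 in limma). Lrrc59, which assists the transport of nucleic acid-sensing receptors, rose by 0.895 on the log2 scale. The next in size, Cnpy4 and the protease Lgmn, each had 0.455 and did not pass (adjusted p = 0.100 and 0.104).

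Below the receptors, 4 of 20 measured adaptor and kinase genes rose and 1 fell, with a median log2 fold change of 0.05. Myd88 read 11.17 and 11.21 in arthritic pools, against 10.35 and 10.43 in nonarthritic pools (log2 fold change 0.80 ± 0.15 SE, adjusted p = 0.0118 in limma). Both arthritic pools were higher by similar steps. The other adaptors did not pass: the log2 fold change was 0.33 for Tirap, 0.065 for Ticam1 and -0.53 for Ticam2 (adjusted p = 0.346, 0.865 and 0.0991). The kinase gene Ikbke (1.28), the phosphoinositide kinase adaptor Pik3ap1 (1.005) and Tab1 (0.72) rose, and the ubiquitin ligase gene Peli1 fell by 0.575 on the log2 scale.

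Transcription factor genes of the pathway rose in 4 of 8 measured cases and fell in 0 (median log2 fold change 0.7375). These were Nfkb2 (1.415), an NF-kappa-B subunit gene that is itself induced by the pathway, Irf7 (1.275) and Irf1 (0.88), both interferon-inducible, and Irf8 (1.01), a factor of myeloid cells. Of 14 measured negative regulators 4 rose and 0 fell (median 0.09): the phosphatase Ptpn6 (0.985), the A20-binding protein Tnip1 (0.94), Socs1 (0.83) and Tnfaip3, which encodes A20 (0.82). Irak3, an inactive kinase of macrophages that restrains Myd88 signalling, had a log2 fold change of -0.42 and did not pass (adjusted p = 0.120).

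Over these 5 pathway lists, 17 of 61 measured genes rose and 2 fell, with a median log2 fold change of 0.15 and the same background of 8.72% and 6.62%. The count of rises was 0 without arthritic pool 1, 0 without arthritic pool 2, 5 without nonarthritic pool 1 and 0 without nonarthritic pool 2. Falls numbered 1, 0, 1 and 0 in the same order.

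**Figure D4:**
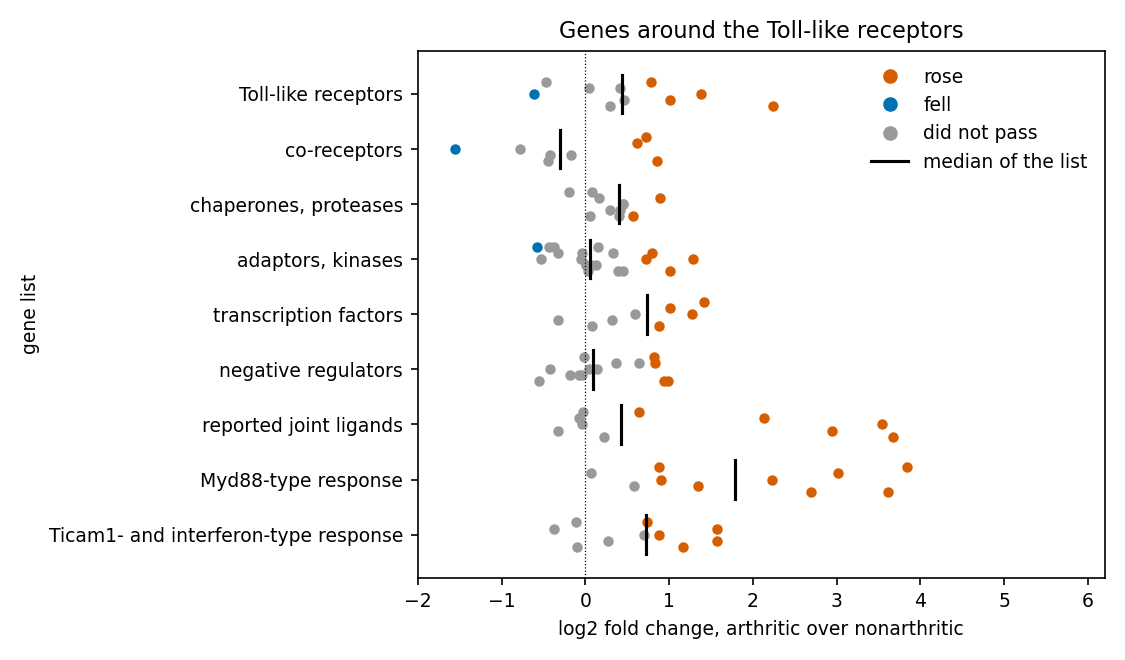
Log2 fold change, arthritic over nonarthritic, of each measured gene of the Toll-like receptors and of 8 lists around them, coloured by call, with the list median as a black line. The widest spread is among the reported joint ligands and the Myd88-type response genes, where log2 fold changes reach 3.675 and 3.835.

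Proteins of the joint that are reported to act on Tlr2 or Tlr4 included 5 rises and 0 falls among 10 genes (median log2 fold change 0.4275). The calgranulin genes S100a8 (3.675) and S100a9 (2.945), the serum amyloid Saa3 (3.54), tenascin C, Tnc (2.135), and versican, Vcan (0.635), rose. In nonarthritic pool 2, S100a8 and S100a9 read 6.82 and 5.86, below the 95th percentile of olfactory receptor genes. Of 10 genes that macrophages induce mainly through Myd88, 8 rose and 0 fell (median 1.785). Of 10 induced mainly through Ticam1 or interferon, 5 rose and 0 fell (median 0.72). Among all genes 8.72% rose and 6.62% fell. The difference between the 2 medians was not tested. Il1b read 11.80 and 12.34 in arthritic pools, against 9.37 and 7.10 in nonarthritic pools, and Cxcl10, an interferon-inducible chemokine, read 8.52 and 8.63 in arthritic pools, against 7.07 and 6.94 in nonarthritic pools. Both genes lay below that percentile in nonarthritic pool 2, as did Cxcl1, Ptgs2 and Acod1, which also rose. Il6, which rose as well, lay below it in both nonarthritic pools. Ifnb1, which encodes interferon beta, read 4.58 and 4.41 in arthritic pools and 4.62 and 4.57 in nonarthritic pools, near the background genes. Ifnb1, Isg15 and Mx1 of the Ticam1 or interferon list, and Il12b of the Myd88 list, lay below that percentile on all 4 arrays. A change in these genes could not be read, which limits both medians. Other receptors, among them those of interleukin-1, also use Myd88, and these lists do not separate them from the Toll-like receptors.

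Markers of the cells that carry Toll-like receptors did not all move alike. Among all genes 8.72% rose and 6.62% fell. Of 10 synovial fibroblast markers, 5 rose and 3 fell. Neutrophil markers rose in 8 of 12 genes and fell in 0. Their mean log2 signal was 9.07 and 9.33 in arthritic pools, against 7.11 and 6.89 in nonarthritic pools. Mmp8 and Ly6g, which rose, lay below the 95th percentile of olfactory receptor genes in both nonarthritic pools. S100a8 and S100a9 did so in nonarthritic pool 2. The chemokine receptor Cxcr2 had a log2 fold change of 3.63, and the precursor-stage granule genes Camp, Ngp, Mpo and Elane, which lay below the 95th percentile of olfactory receptor genes on all 4 arrays, did not pass. Monocyte and macrophage markers rose in 5 of 11 measured genes and fell in 0. Their mean log2 signal was 10.98 and 11.15 in arthritic pools, against 10.63 and 10.47 in nonarthritic pools. Those that rose were Mpeg1 (log2 fold change 1.91), Fcgr1 (1.595), Ccr2 (0.695), Cd68 (0.69) and Itgam (0.62), and 6 did not pass. Both arthritic pools lay above both nonarthritic pools for 7 of the 11, against 30.2% of all genes. They lay below for 1, against 26.1%, and the groups overlapped for 3. Resident macrophage markers fell in 5 of 6 genes (Lyve1, Vsig4, Timd4, Cd163 and Folr2), with 9.82 and 9.60 in arthritic pools, against 11.31 and 11.26 in nonarthritic pools. The part of these cell shifts in the changes of the Toll-like receptor genes was not tested.

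Tlr7 and Tlr9 are known from B cells and plasmacytoid dendritic cells as well. Among B cell markers 3 of 6 measured genes, against 6.62% of all genes, passed the test with lower values, and 0 passed with higher ones. Of these, Fcer2a lay below the 95th percentile of olfactory receptor genes on all 4 arrays, and Ms4a1 and Cd79a lay below it in both arthritic pools. For the whole list, the mean log2 signal was 6.395 and 6.47 in arthritic pools, against 7.02 and 7.28 in nonarthritic pools. That mean was below the percentile in both arthritic pools (6.766 and 6.936) and in nonarthritic pool 2 (7.358). Cr2, which did not pass, lay below the percentile on all 4 arrays. Of 5 measured plasmacytoid dendritic cell markers, Siglech fell (-0.725, limma adjusted p = 0.0304) and the interferon-inducible Bst2 rose (1.155). The mean of the 5 was 8.39 and 8.10 in arthritic pools and 8.32 and 8.17 in nonarthritic pools. It includes Ccr9, below the percentile on all 4 arrays, and Spib, below it on 3. Conventional dendritic cell markers rose in 1 of 7 measured genes, the cytokine receptor Flt3 (0.945), against 8.72% of all genes. Their mean was 8.18 and 8.30 in arthritic pools and 7.94 and 7.84 in nonarthritic pools. Xcr1 lay below the percentile on all 4 arrays and Itgae in both nonarthritic pools. The part of such cells in the values of Tlr7 and Tlr9 was not tested.

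The genes whose log2 profiles over the 4 arrays, centred on their own means, lay nearest to that of Tlr1 were Arsi, Nt5dc2 and Col12a1, at Euclidean distances of 0.0316, 0.0762 and 0.0854 log2 units. Nearest to Tlr7 were Fam174a, Iqcf1 and Chd9, at 0.0173, 0.0245 and 0.0412. Iqcf1 lay below the 95th percentile of olfactory receptor genes on all 4 arrays. The 4 arrays fall into 2 groups, so such likeness is set by the difference between groups and the gaps between pools.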

How the data were processed

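Synovial RNA from 4 pools (2 arthritic, 2 nonarthritic) was labelled from 500 ng and hybridised to 1 Affymetrix mouse gene array per pool, per the labels' protocols. The log2 signals were deposited by the authors with 2 decimals each. Per the submitters' processing notes, RMA (background correction, normalization between arrays and summary per probe set) was used, with Affymetrix Power Tools and Expression Console. Versions were not given in the sources used here. Values between 2.89 and 14.27 fit a log2 scale, which was inferred from them. Detection calls were not used, and the number of arrays limits the precision.

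Of 41345 probe sets, 23521 had 1 gene symbol in the platform table, 1814 had several and 16010 had none. Gene numbers matched a RefSeq table (GRCm38.p6) for 23328 of the 23521, and 0 were renamed. Keeping the probe set with the highest mean per gene left 22180 genes. Groups were compared with limma 3.58.1 in R 4.3.3 (lmFit and eBayes with a constant prior, 2-sided, no block, 2 residual and 5.98 prior degrees of freedom), with Benjamini-Hochberg adjustment over all genes and a threshold of 0.05. The fit was tested on simulated data. Errors of fold changes are limma SE. Names follow a fixed rule: all members, a set of core partners, up to 6 called genes per list by size (or the largest up to 3 where fewer than 3 were called), and the 3 nearest profiles of the highest and lowest member. Prg4, Ifnb1, Isg15, Mx1, Il12b, Ly6g, Camp, Ngp, Mpo, Elane, Cr2, Ccr9, Spib and Xcr1 were named outside it, after their values were seen. Members and lists were chosen with earlier results of these data known. The lists hold 185 genes, of which 174 were measured, and the other 11 were not analysed here. Motifs, chosen after the values were seen, were searched with Python 3.11.15. The alternatives tried were 11: other scalings, probe set rules, a dim-gene filter, a trended prior, a replicate block and each pool left out.

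Whether same-numbered pools belong together is not given by the labels, and the correlation of their deviations from group means was 0.176 over genes.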

Additional observations from a re-analysis of the deposited data

How the results depend on the processing

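Tlr1, Tlr2, Tlr9 and Tlr13 stayed called as rising with arrays centred on their medians, quantile normalization again and the dim-gene filter (13804 genes). The same held for the trended prior and for all 23521 probe sets tested. Averaging probe sets could not change a member's values, as each had 1 probe set with exactly 1 gene symbol, so it is no check on them. Of 110 single-gene results under 11 alternatives, 89 kept direction and side of the threshold, 20 lost the call and 1 changed sign: Tlr3, -0.0025 with quantile normalization again. The lost calls were all of Tlr1, Tlr2, Tlr7, Tlr9 and Tlr13, and the 5 members that did not pass had no call to lose. Centring on medians put the all-gene median fold change at 0.1, against 0.005, and the share of rises among calls at 67.1%, against 56.8%. It left 0 falling members and moved the endosomal median to 0.51, a shift given by its construction. With 1 pool left out, 0 to 2 members rose and 0 fell, the surface median ran from 0.36 to 0.63 and the endosomal median from 0.32 to 0.51; these fits have 1 pool in a group, assumed to vary like the others. With the replicate block, 3 members rose and 0 fell: Tlr13 and Tlr7 were not called (adjusted p = 0.0659 and 0.0558 in limma), and over all genes 1216 rose and 1027 fell, against 1933 and 1469. The labels give no reason to pair the pools beyond a shared number. All 10 members lay above the background gauged by olfactory receptor genes, Tlr1 by little in nonarthritic pool 2 (7.53 against 7.358). Background limits other genes, among them Tlr11, Tlr12, Fcer2a and Iqcf1 on all 4 arrays and some markers and response genes in 1 group.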

Other observations

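Of 7 markers of mast cells, which are known to carry several Toll-like receptors, 3 fell and 0 rose in arthritic synovium. Among all genes 6.62% fell and 8.72% rose, which applies to each marker count here. The protease Cpa3 had a log2 fold change of -1.005 (limma adjusted p = 0.00882). The IgE receptor chain Ms4a2 read 6.40 and 6.01 in arthritic pools, against 8.01 and 7.67 in nonarthritic pools, and the receptor Mrgprb2 read 6.52 and 5.99 in arthritic pools, against 7.69 and 7.56 in nonarthritic pools. The arthritic values of both lay below the 95th percentile of olfactory receptor genes, so no fold change is given (limma adjusted p = 0.0016 and 0.00387). The mean log2 signal of the list was 8.48 and 8.30 in arthritic pools, against 9.14 and 9.01 in nonarthritic pools. Of 5 endothelial markers 1 rose, the growth factor receptor Kdr (0.73), with a mean of 10.71 and 10.40 in arthritic pools and 10.54 and 10.46 in nonarthritic pools. All 5 skeletal muscle markers fell, with a median log2 fold change of -3.18. Of 10 synovial fibroblast markers 5 rose and 3 fell: Cdh11 (1.70) and podoplanin, Pdpn (1.185), were among those that rose, and Clic5 (-2.48), Htra4 (-1.885) and Cd55 (-1.44) were those that fell.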
